A study of Mus musculus with 4 samples.

Results

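The genes of sterol and fatty acid synthesis were followed across 4 populations of mouse CD4 T lineage cells. A list of 35 genes was looked up by symbol in the platform annotation, and 31 were measured, out of 22180 genes on the array. They fall into 19 of 21 genes of sterol synthesis and its control, 9 of 10 genes of fatty acid synthesis and desaturation, and 3 of 4 genes of cholesterol efflux and the liver X receptor (LXR). Idi1, Acat2, Scd2 and Nr1h2 were not analysed here, because no probe set carried their symbol alone. Each of the 31 genes was read by 1 probe set. The level filter was the median of the whole table, 6.61 on the log2 scale. At least 1 array reached it for all 31 genes, and all 4 arrays did for 28. The exceptions were Scd1, which passed only through the cTh1 array, Fads2, which was under it in TT naive cells, and Sqle, which was under it on the naive array. Medians of a list cover all its measured genes, while counts at 2-fold and the medians of all genes use those above the filter on at least 1 array of the comparison.

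Mice were on the C57BL/6 background and 8 weeks old, and each population was measured on 1 Affymetrix array. The naive cells came from wild-type spleen and were sorted as CD4+CD62Lhi. The classic Th1 (cTh1) cells were such cells after 5 days on beads that bind CD3 and CD28, in medium with 2 ng/ml IL-12, 50 U/ml IL-2 and an IL-4 blocking antibody. TT naive and natural Th1 (nTh1) cells were CD4+CD62L+ thymocytes of CIITAtg mice without and with the chemokine receptor CXCR3. The labels do not give the promoter of the transgene or say whether animals were pooled. Tissue, genotype and culture change together in several comparisons and cannot be told apart there. Values are log2 summaries by RMA, a method that corrects background, equalises the arrays and combines the probes of a set. With 1 array per population, no difference could be checked against replicates or tested. The error that could be measured is how far probe sets of 1 gene spread, which leaves out variation between animals, sorts and arrays.

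Cholesterol is built from acetyl-CoA by way of mevalonate, the isoprenoid farnesyl pyrophosphate, squalene and a series of ring sterols. When sterol is scarce, SREBP factors leave the endoplasmic reticulum and switch on the enzymes of this pathway and the LDL receptor, and INSIG proteins hold the factors back when sterol is plentiful. LXR acts in the other direction, since it is switched on by oxidised sterols and raises the exporters ABCA1 and ABCG1. T cells that enter the cell cycle are known to turn up lipid synthesis through SREBP, which supplies membrane.

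Of the 9 T cell markers measured, all lay between 10.86 and 13.11 on the 4 arrays. The array labelled naive carried Zbtb16, a gene of innate-like T cells, at 12.23, Tbx21 at 9.81 and Cxcr3 at 9.80. TT naive cells had 9.36, 7.11 and 7.76, and nTh1 cells 9.88, 7.92 and 9.91. The values of the array labelled naive go against the label of a naive population. That array is called the labelled-naive array from here, and counts and list medians of cTh1 are also given against TT naive cells. The Y-linked gene Kdm5d was between 8.17 and 8.46 on the labelled-naive array and in TT naive cells, and at 4.72 in both cTh1 and nTh1, so the animals behind these pairs of arrays differed. Every array also carried Xist, which silences an X chromosome in female cells, from 12.56 to 13.25, so the former pair held both kinds of RNA. The Y-linked difference runs along every comparison of cTh1 or nTh1 with the labelled-naive array or TT naive. By label, the labelled-naive array shares tissue and genotype with cTh1, and TT naive with nTh1, so the Y-linked pairs cross the labels. Whether the nTh1 label is right was not tested, and nTh1 is named by its label throughout.

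The sterol synthesis genes had their highest level in cTh1 cells without exception, 19 of 19. Over all 31 members the highest level was in cTh1 for 25, where 34.2% of the 13238 genes above the filter on any array had it there. The lowest level was in nTh1 for 13 of the 19 sterol genes and for 16 of the 31 members, against 34.5% of all genes. Desaturases and the elongase Elovl6 also peaked in cTh1, but none of them was lowest in nTh1. The genes that make the palmitate chain did not peak in cTh1, and the exporters Abca1 and Abcg1 were lowest there. In bulk RNA, fewer cells of a type and less RNA per cell cannot be told apart.

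**Figure D1:**
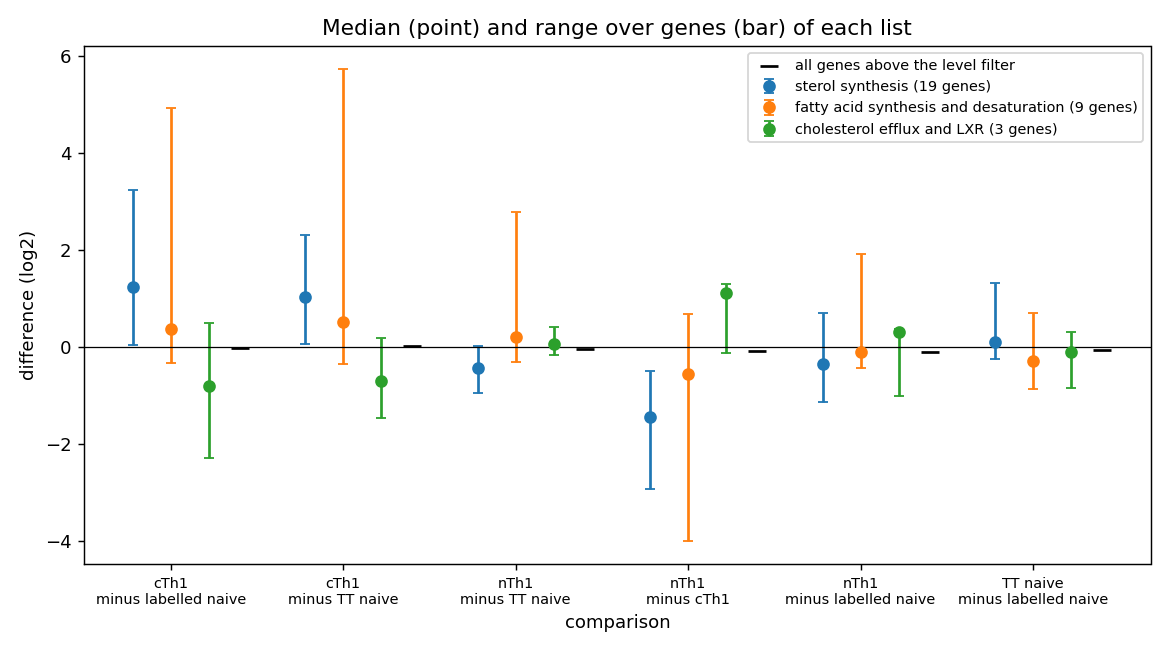
Log2 differences in the 6 comparisons between arrays. Points are medians over the measured genes of a list, bars run from the lowest to the highest gene, and black dashes are medians over all genes above the level filter. Sterol synthesis lies at 1.25 and 1.04 for cTh1 over the labelled-naive array and over TT naive, and at -1.44 for nTh1 over cTh1.

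Promoter sequences are given for members that were higher together in cTh1 and for some that did not. RefSeq windows of GRCm38.p6 were matched by symbol for 27 of the 35 genes, with 32 windows in all because some genes have several starts. The 250 bases before each start were searched on both strands for TCACNCCAC (a sterol response element), CCAAT (the NF-Y box), GGGCGG (the Sp1 box), CACGTG (an E-box) and the LXR element, a direct repeat of AGGTCA with a spacer of 4 bases. Capitals mark every match, and a match on the other strand reads ATTGG for CCAAT or CCGCCC for GGGCGG. Sequences run 5′ to 3′ on the strand of the gene and end at the base before the start. Hmgcs1 is shown as the window that held the sterol response element, Cyp51, Mvk and Insig1 as other genes at least 2-fold higher in cTh1 than on the labelled-naive array (over TT naive Mvk at 0.90 and Insig1 at 0.95 were not), Ebp as a sterol gene that was not, Fads2 as the desaturase with a window, and Abca1 as the exporter that was lower.
Hmgcs1, chr13:119690101-119690350, plus strand: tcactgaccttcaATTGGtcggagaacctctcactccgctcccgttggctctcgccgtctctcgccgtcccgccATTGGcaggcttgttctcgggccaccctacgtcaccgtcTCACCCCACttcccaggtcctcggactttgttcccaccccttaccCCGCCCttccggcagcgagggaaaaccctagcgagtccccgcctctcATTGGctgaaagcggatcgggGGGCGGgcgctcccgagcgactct
Cyp51, chr5:4104698-4104947, minus strand: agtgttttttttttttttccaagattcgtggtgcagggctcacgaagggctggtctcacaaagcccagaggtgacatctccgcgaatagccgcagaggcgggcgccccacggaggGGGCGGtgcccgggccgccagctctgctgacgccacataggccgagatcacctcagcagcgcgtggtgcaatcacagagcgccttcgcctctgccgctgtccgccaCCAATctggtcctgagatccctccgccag
Mvk, chr5:114444019-114444268, plus strand: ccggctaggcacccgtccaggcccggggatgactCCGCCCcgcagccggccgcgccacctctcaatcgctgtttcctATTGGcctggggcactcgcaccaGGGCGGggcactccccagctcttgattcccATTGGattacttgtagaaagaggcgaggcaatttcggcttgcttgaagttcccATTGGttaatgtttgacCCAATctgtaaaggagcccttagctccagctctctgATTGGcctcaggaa
Insig1, chr5:28071162-28071411, plus strand: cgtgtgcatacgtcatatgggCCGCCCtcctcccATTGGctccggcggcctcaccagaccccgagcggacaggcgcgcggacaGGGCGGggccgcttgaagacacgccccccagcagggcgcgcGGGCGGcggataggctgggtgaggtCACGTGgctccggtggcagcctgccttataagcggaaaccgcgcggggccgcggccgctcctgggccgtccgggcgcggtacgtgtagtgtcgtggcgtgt
Ebp, chrX:8193513-8193762, minus strand: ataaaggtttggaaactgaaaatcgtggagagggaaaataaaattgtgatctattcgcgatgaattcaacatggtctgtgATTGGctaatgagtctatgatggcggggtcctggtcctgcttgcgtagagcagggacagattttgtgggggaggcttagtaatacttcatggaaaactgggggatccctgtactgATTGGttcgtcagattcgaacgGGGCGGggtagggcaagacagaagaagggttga
Fads2, chr19:10101504-10101753, minus strand: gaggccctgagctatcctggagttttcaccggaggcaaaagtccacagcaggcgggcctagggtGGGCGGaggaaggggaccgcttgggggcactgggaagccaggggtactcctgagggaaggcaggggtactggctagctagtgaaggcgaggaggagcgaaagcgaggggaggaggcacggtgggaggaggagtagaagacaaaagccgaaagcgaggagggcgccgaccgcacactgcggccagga
Abca1, chr4:53159896-53160145, minus strand: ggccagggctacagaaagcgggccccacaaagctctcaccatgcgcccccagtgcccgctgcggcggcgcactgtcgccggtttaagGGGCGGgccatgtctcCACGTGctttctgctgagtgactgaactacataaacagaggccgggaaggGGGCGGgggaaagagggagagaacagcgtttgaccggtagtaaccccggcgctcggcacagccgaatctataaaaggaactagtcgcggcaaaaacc

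The CCAAT box was in 16 of 20 windows of sterol synthesis genes, 80.0%, where 33.85% of all 32851 windows and 34.7% of the 13024 windows of genes above the level filter held it. Mvk held 5 copies, Hmgcs1 3 and Ebp 2, while Abca1 and Fads2 held none. GGGCGG was in 17 of the 20 sterol windows, 85.0%, against 32.7% of all windows and 55.0% of those of genes above the filter. TCACNCCAC matched once among the 32 windows, 137 to 129 bases before the start of Hmgcs1 as TCACCCCAC, and was in 1.05% of all windows. CACGTG was in 4 of the 20 sterol windows, Insig1 among them, and in the Abca1 window. It was in 6.02% of all windows and 8.15% of those of genes above the filter. The 20 sterol windows belong to 17 genes, with several for Dhcr7 and Pmvk. They include Idi1 and Acat2, which were not measured, while Sqle, Fdps, Fdft1 and Stard4 had no window. The LXR element matched no window of a member and 5 of all windows. Ebp held CCAAT 2 times and GGGCGG 1 time, and its level differed by 0.06 between cTh1 and the labelled-naive array. Such matches describe the letters only.

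The enzymes from mevalonate to squalene open the pathway. Hmgcs1 makes HMG-CoA, the precursor of mevalonate. Its level was 8.59 on the labelled-naive array, 8.69 in TT naive, 11.01 in cTh1 and 8.09 in nTh1. The other 3 arrays lay within 0.60 of each other and cTh1 stood above them, by 2.42 or 5.37-fold over the labelled-naive array and by 2.32 over TT naive cells. The spread between probe sets of a gene had an SD of 0.402 in the comparison with the labelled-naive array and 0.440 in that with TT naive. Fdps, which joins isoprene units into farnesyl pyrophosphate, read 9.66, 9.85, 11.55 and 9.18 in the same order of arrays. Fdft1, the squalene synthase, read 9.89, 9.70, 11.16 and 8.76. Both were highest in cTh1 and lowest in nTh1, and cTh1 exceeded the labelled-naive array and TT naive by 1.89 and 1.70 in Fdps and by 1.27 and 1.46 in Fdft1.

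The kinases and the decarboxylase between them differed less. The mevalonate kinase Mvk was at 7.82, 8.07, 8.96 and 7.86, the phosphomevalonate kinase Pmvk at 7.62, 7.65, 8.88 and 7.32, and the decarboxylase Mvd at 8.11, 8.14, 9.12 and 7.77 on the labelled-naive array, TT naive, cTh1 and nTh1. Within each of these genes the 3 arrays other than cTh1 spanned no more than 0.38. Against the labelled-naive array all 6 enzymes of this segment were at least 2-fold higher in cTh1, as were 5.13% of all genes. The median was 1.27. Against TT naive 4 of 6 were at least 2-fold higher, as were 7.24% of all genes. Mvd at 0.98 and Mvk at 0.90 stayed under 2-fold, and the median was 1.35.

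**Figure D2:**
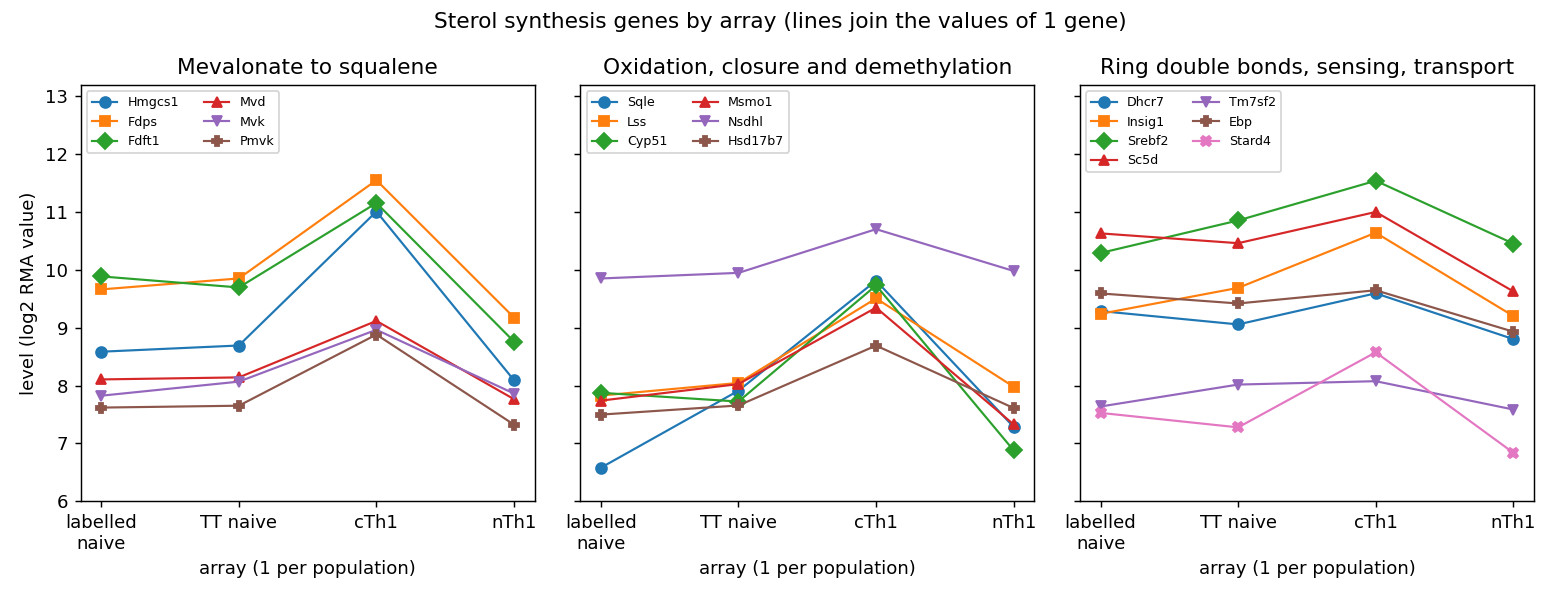
Levels (log2 RMA value, vertical axis) of the 19 measured sterol synthesis genes on the 4 arrays (horizontal axis), in panels by segment of the pathway, with 1 value per gene and array. All 19 peak in cTh1. Hmgcs1 is at 8.59 on the labelled-naive array and 11.01 in cTh1, while Ebp, at 9.59 and 9.65, is nearly flat there.

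Squalene is then oxidised, closed into rings and stripped of methyl groups. Sqle, the squalene epoxidase and a rate-limiting step, was at 6.58 on the labelled-naive array, 7.91 in TT naive, 9.81 in cTh1 and 7.28 in nTh1. It was the sterol gene in which the baselines disagreed most. cTh1 was 3.24, or 9.42-fold, above the labelled-naive array and 1.90, or 3.74-fold, above TT naive, and the labelled-naive array was just under the level filter. Cyp51, the lanosterol demethylase, read 7.87, 7.72, 9.73 and 6.88, so that cTh1 was higher by 1.86 and 2.01 than the 2 baselines. Lss, which closes squalene epoxide to lanosterol, read 7.83, 8.05, 9.51 and 7.98, with differences of 1.68 and 1.46. In both genes the baselines gave like differences.

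Msmo1, Nsdhl and Hsd17b7 remove the methyl groups at the fourth carbon of the ring in successive reactions. Msmo1 was at 7.74, 8.03, 9.35 and 7.33, Hsd17b7 at 7.50, 7.66, 8.69 and 7.61, and Nsdhl at 9.85, 9.95, 10.71 and 9.98 on the labelled-naive array, TT naive, cTh1 and nTh1. Nsdhl was the sole member of this segment under 2-fold, at 0.85 over the labelled-naive array and 0.76 over TT naive. The 6 genes had medians of 1.64 and 1.39 against these baselines, and 5 of 6 were at least 2-fold higher in each. Of all genes 5.13% and 7.24% were.

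The enzymes that act on ring double bonds differed less between cTh1 and the 2 baselines. They are the reductases Tm7sf2 and Dhcr7, the isomerase Ebp and the desaturase Sc5d. Ebp read 9.59, 9.42, 9.65 and 8.93 on the labelled-naive array, TT naive, cTh1 and nTh1, and Tm7sf2 read 7.64, 8.02, 8.08 and 7.59. Dhcr7, the last enzyme before cholesterol in 1 branch, read 9.29, 9.06, 9.60 and 8.80, and Sc5d read 10.63, 10.46, 11.00 and 9.63. None was 2-fold higher in cTh1, where 5.13% and 7.24% of all genes were. Their medians were 0.34 and 0.38 against the 2 baselines. Over the labelled-naive array their differences ran from 0.06 to 0.44, while the 12 enzymes of the segments above ran from 0.85 to 3.24, and these ranges did not overlap. Over TT naive they ran from 0.06 to 0.54 and from 0.76 to 2.32. The segments were drawn by enzyme role with the values known, and this separation was not tested.

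Srebf2, Insig1 and Stard4 sense or move sterol. Srebf2 encodes the SREBP that governs cholesterol synthesis, and read 10.29 on the labelled-naive array, 10.86 in TT naive, 11.54 in cTh1 and 10.46 in nTh1. Insig1, which retains SREBP and is itself an SREBP target, read 9.24, 9.69, 10.64 and 9.20, and Stard4, a carrier of cholesterol between membranes, read 7.53, 7.28, 8.58 and 6.84. All 3 were at least 2-fold higher in cTh1 than on the labelled-naive array, by 1.25, 1.40 and 1.05. Against TT naive this held for Stard4 alone at 1.30, with Insig1 at 0.95 and Srebf2 at 0.69. The shares of all genes in these comparisons were 5.13% and 7.24%. Srebf2 thus lost 0.56 with the change of baseline, which is above the probe set SD of 0.304 between those baselines.

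For the 19 sterol synthesis genes together, the median difference of cTh1 over the labelled-naive array was 1.25, against -0.02 for all 12835 genes above the filter. At least 2-fold higher were 14 of 19, with none lower. All 19 were above 0, as were 47.7% of all genes. Over TT naive the median was 1.04 against 0.03, with 10 of 19 at least 2-fold higher and none lower, and again all 19 were above 0, against 53.4% of all genes. Counted over the 31 members, 18 were higher by 2-fold or more and 1 lower against the labelled-naive array, where all genes gave 5.13% and 3.35%. Over TT naive 14 were higher and 1 lower, where all genes gave 7.24% and 3.02%. Among members above the filter on both arrays, 16 of 29 were 2-fold higher than the labelled-naive array, without Scd1 and Sqle. Over TT naive 12 of 29 were, without Scd1 and Fads2. Under the same filter 491 of 11627 genes and 663 of 11363 genes were higher in these comparisons. The 2 comparisons share the cTh1 array.

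B cell and CD8 markers were higher on the cTh1 array. Past 2-fold over the labelled-naive array were 6 of the 7 B cell markers above the filter and both CD8 genes, where 5.13% of all genes were. Of the 2 NK markers above the filter there, 1 was, namely Gzma at 10.52 against 7.83. The B cell levels summed on the linear scale were 674, 649, 4593 and 1172 on the labelled-naive array, TT naive, cTh1 and nTh1, with Cd79a at 10.29 in cTh1. The CD8 sums were 430, 742, 2986 and 946. The 11 myeloid markers summed to 2818, 1538, 2002 and 4056, with C1qb at 6.61 in cTh1. The 9 cell cycle genes had a median difference of 0.24 over the labelled-naive array, with 1 gene at 2-fold, and of 1.27 over TT naive, with 5. The part of these cells and of the cell cycle in the lipid genes was not tested.

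**Figure D3:**
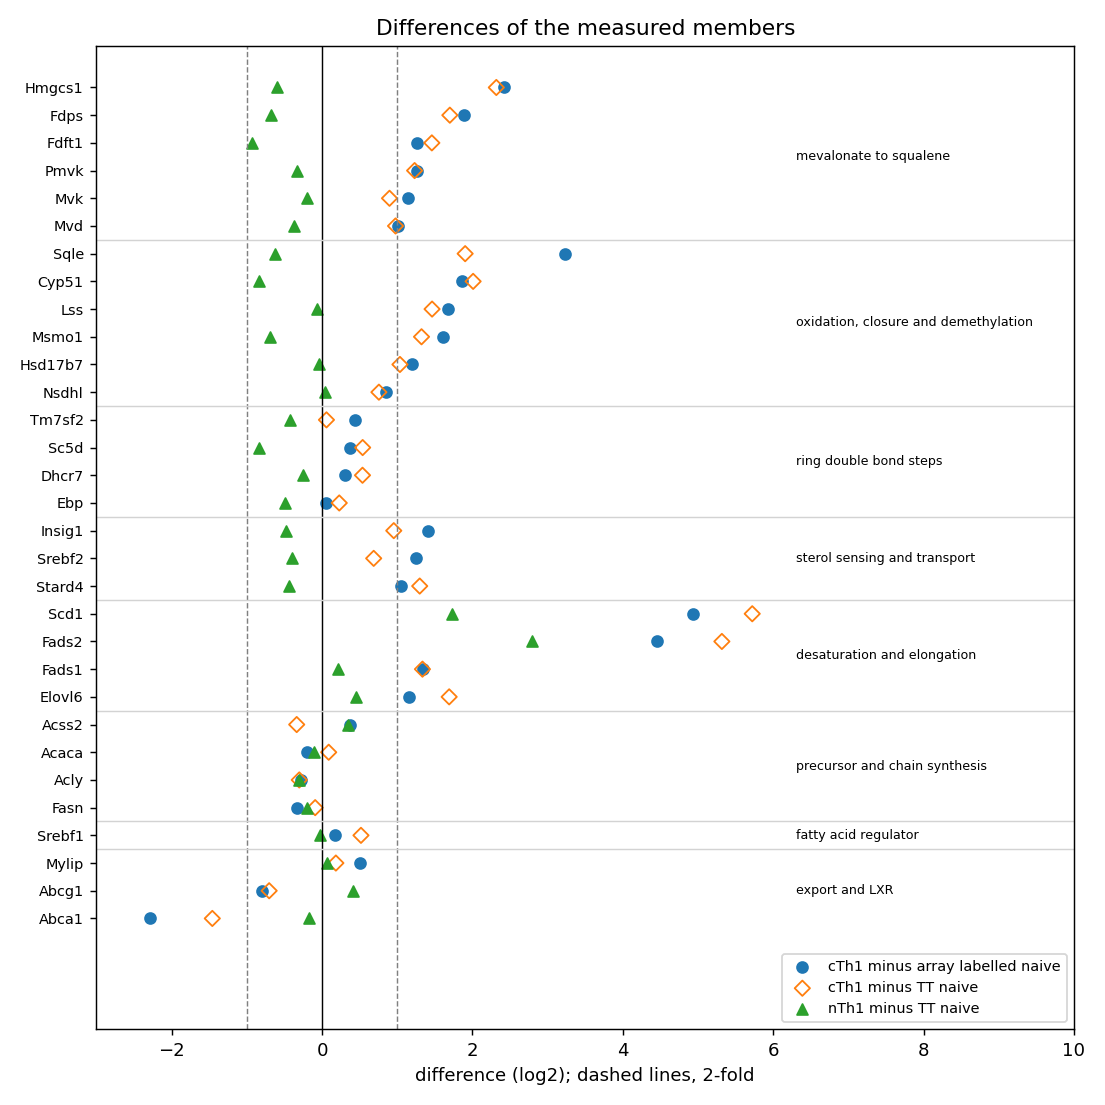
Log2 differences of the 31 measured genes (horizontal axis), 1 row per gene, ordered by role. Circles give cTh1 minus the labelled-naive array, diamonds cTh1 minus TT naive and triangles nTh1 minus TT naive, and dashed lines mark 2-fold. Scd1 and Fads2 lie farthest to the right, the ring double bond genes and Fasn, Acaca and Acly stay inside the dashed lines, and Abca1 lies at -2.29 and -1.46.

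Scd1 and Fads2, both desaturases, had the widest measured range among the fatty acid genes. Scd1 puts the double bond into stearate and palmitate. It was at 5.44 on the labelled-naive array, 4.66 in TT naive, 10.38 in cTh1 and 6.39 in nTh1, and thus under the level filter on every array but cTh1. The measured difference was 4.94 over the labelled-naive array and 5.72 over TT naive. With the baselines set to the filter level it was at least 3.77, or at least 13.6-fold, over each. Because it passed the filter only where it was high, its call in these comparisons was bound to be a difference. Mouse Scd1 has close relatives in the genome, and whether its probe set also reads them was not tested.

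Fads2, the delta-6 desaturase of polyunsaturated fatty acids, was at 6.95 on the labelled-naive array, 6.09 in TT naive, 11.41 in cTh1 and 8.88 in nTh1. Here nTh1 took a middle place, well above both other uncultured arrays and well below cTh1. Fads1, the delta-5 desaturase next to Fads2 in the same pathway, read 9.21, 9.22, 10.55 and 9.42. Elovl6, which lengthens palmitate to stearate, read 9.90, 9.36, 11.05 and 9.80. In Fads1 the 3 arrays other than cTh1 were within 0.22 of each other. cTh1 exceeded the labelled-naive array by 4.45 in Fads2, 1.34 in Fads1 and 1.15 in Elovl6, and TT naive by 5.32, 1.34 and 1.69. With TT naive set to the filter level, the Fads2 difference from it was at least 4.80.

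The genes that make the chain did not share this pattern. Acly, which cleaves citrate to acetyl-CoA, was at 11.05, 11.07, 10.77 and 10.77 on the labelled-naive array, TT naive, cTh1 and nTh1. Acaca, the acetyl-CoA carboxylase, was at 8.70, 8.42, 8.51 and 8.31, and Fasn, the fatty acid synthase, at 11.51, 11.27, 11.18 and 11.08. None of the 3 differed by as much as the probe set SD between cTh1 and either baseline. Acss2, which makes acetyl-CoA from acetate, was at 9.68, 10.39, 10.05 and 10.73, lowest on the labelled-naive array and highest in nTh1. Srebf1, the SREBP gene tied to fatty acid synthesis, was at 9.54, 9.20, 9.72 and 9.17.

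All 4 desaturation and elongation genes were at least 2-fold higher in cTh1 than on either baseline, and none of the 4 chain genes was. Among all genes 5.13% were higher over the labelled-naive array and 7.24% over TT naive. The list of 9 had medians of 0.38 and 0.52, against -0.02 and 0.03 for all genes. Over the genes above the filter on both arrays its medians were 0.27 for 8 genes and 0.09 for 7. Over the labelled-naive array the range of the former group, 1.15 to 4.94, did not overlap that of the latter, -0.33 to 0.38. Over TT naive the ranges were 1.34 to 5.72 and -0.34 to 0.09. Without Scd1 the former group had 3 of 3 at least 2-fold higher than either baseline, from 1.15 to 4.45 and from 1.34 to 5.32. Over TT naive, however, Fads2 also passed the filter only through cTh1, so its call there was bound to be a difference. With TT naive set to the filter level its 5.32 became at least 4.80. These groups were likewise drawn by role with values known, and their separation was not tested.

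**Figure D4:**
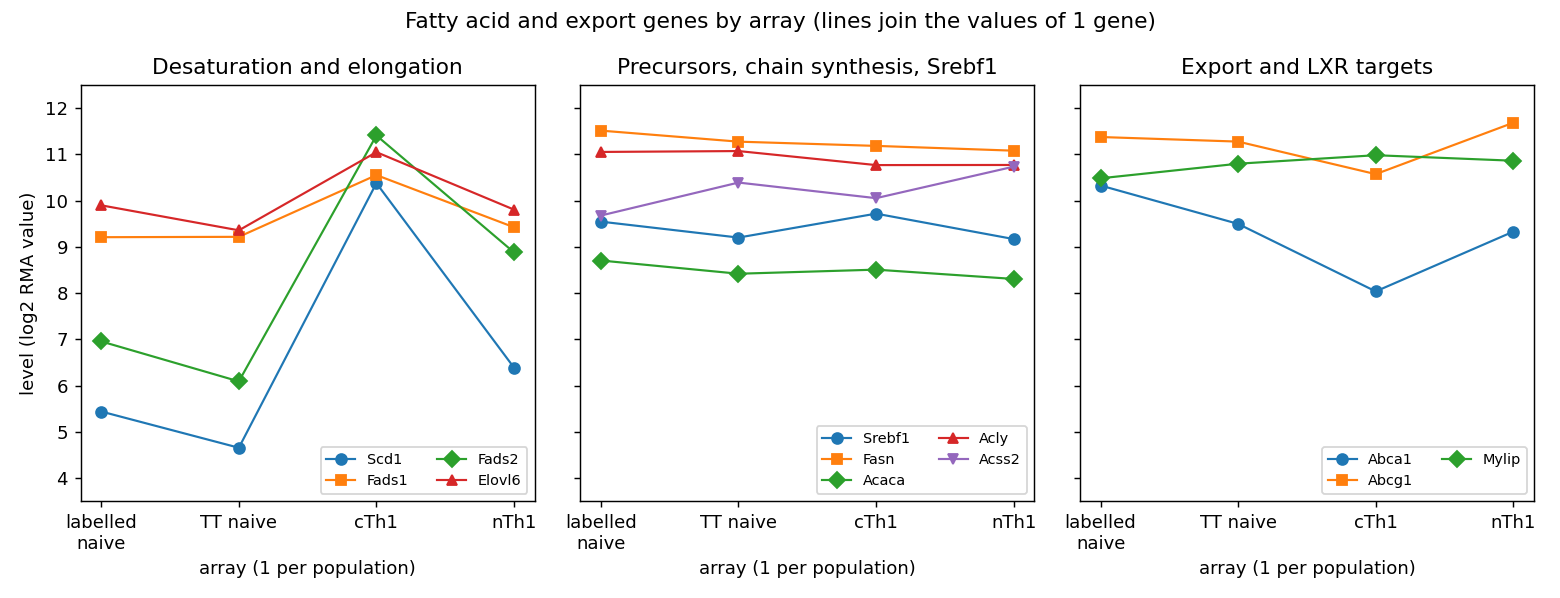
Levels (log2 RMA value, vertical axis) of desaturation and elongation genes, of chain synthesis genes with Srebf1, and of export and LXR target genes on the 4 arrays (horizontal axis), with 1 value per gene and array. Scd1 and Fads2 reach 10.38 and 11.41 in cTh1, Fasn stays between 11.08 and 11.51, and Abca1 has its lowest value, 8.04, in cTh1.

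The exporters went the other way. Abca1, which loads cholesterol onto apolipoprotein A-I, was at 10.33 on the labelled-naive array, 9.50 in TT naive, 8.04 in cTh1 and 9.33 in nTh1. It was lowest in cTh1, by -2.29 or 4.89-fold against the labelled-naive array and by -1.46 or 2.75-fold against TT naive. Abcg1, which exports cholesterol to HDL, was at 11.37, 11.27, 10.57 and 11.68, again lowest in cTh1, with differences of -0.80 and -0.70 that stayed under 2-fold. Mylip encodes the LXR-induced ligase that degrades the LDL receptor, and read 10.48, 10.80, 10.98 and 10.86. It did not share the direction of the exporters, although it is also an LXR target. The 3 genes had medians of -0.80 and -0.70 against the 2 baselines. Macrophages carry much Abca1. The myeloid sums were 2818 on the labelled-naive array, 1538 in TT naive, 2002 in cTh1 and 4056 in nTh1, and the part of myeloid RNA was not tested.

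The series title sets natural beside classical Th1 cells, and the sterol genes differed between them. In nTh1 all 19 were below their cTh1 level, as were 57.1% of all 12841 genes above the filter, with a median of -1.44 against -0.08. At least 2-fold lower were 15 of 19, where all genes gave 8.3%. The probe set SD was 0.481. Hmgcs1 differed by -2.92, or 7.56-fold, Cyp51 by -2.85, Sqle by -2.53, Fdft1 by -2.40 and Fdps by -2.38. The exceptions to 2-fold were Nsdhl at -0.72 and 3 of the 4 ring double bond genes, namely Tm7sf2 at -0.49, Ebp at -0.72 and Dhcr7 at -0.79. Sc5d was at -1.37. Scd1 differed by -3.99, with nTh1 under the filter, Fads2 by -2.53, Elovl6 by -1.24 and Fads1 by -1.13, while Acly differed by 0.00 and Fasn by -0.10. Abca1 and Abcg1 were higher in nTh1, by 1.29 and 1.11. Of the 31 members 2 were at least 2-fold higher and 19 lower, where all genes gave 3.46% and 8.3%. Among members above the filter on both arrays, 18 of 30 were at least 2-fold lower, without Scd1. Under the same filter 835 of 11388 genes were lower. The cell cycle genes had a median of -1.83 in the same comparison, with 6 of 9 at least 2-fold lower, and the B cell markers -1.83, with 5 of 7. Of the 11 myeloid markers 5 were at least 2-fold higher in nTh1, with a median of 0.78. The part of these cells and of the cell cycle was not tested.

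Between the arrays labelled as CIITAtg thymocytes, CXCR3+ nTh1 cells had slightly less sterol synthesis RNA than CXCR3- TT naive cells. The Y-linked Kdm5d was at 8.46 in TT naive and 4.72 in nTh1, so CXCR3 and the animals differed together and cannot be told apart. Of the 19 genes 18 were lower in nTh1, as were 57.3% of all 12435 genes above the filter, with a median of -0.44 against -0.05. The probe set SD was 0.257, which leaves out variation between animals, sorts and arrays. No sterol gene reached 2-fold. Fdft1 at -0.94, Cyp51 at -0.84, Sc5d at -0.83 and Msmo1 at -0.70 came nearest, and Nsdhl at 0.03 was the gene not lower. The ring double bond genes, with a median of -0.46, were as low here as the mevalonate segment at -0.49.

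Fads2 was higher in nTh1, unlike the sterol genes. It measured 6.09 in TT naive, under the filter, and 8.88 in nTh1, a difference of 2.79, and of at least 2.27 or at least 4.83-fold with TT naive set to the filter level. It passed the filter only through nTh1, where it was high. Scd1 was higher by 1.73 but below the filter on both arrays, at 4.66 and 6.39, and is not counted. Elovl6 was at 0.45, and Fads1 at 0.21 lay within the probe set SD of 0.257. The fatty acid list of 9 had a median of 0.21, which was 0.09 over the 8 above the filter and -0.03 over the 7 above it on both arrays. Past 2-fold were 1 higher and 0 lower of the 30 members that passed the filter, where all genes gave 1.41% and 1.09%, and the 1 higher was Fads2. Myeloid markers moved the same way as Fads2, with 8 of 11 at least 2-fold higher in nTh1, a median of 1.66 and Lyz2 at 9.44 against 6.05. The cell cycle genes had a median of -0.21. The part of myeloid RNA in Fads2 was not tested.

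Against the labelled-naive array, nTh1 cells gave a mixed picture. The sterol median was -0.34 against -0.10 for all genes, with Fdft1 at -1.13 and Sc5d at -1.003 at least 2-fold lower and Sqle at 0.71. Higher were Fads2 at 1.93 and Acss2 at 1.06, so that of 30 members past the filter 2 were higher and 2 lower by 2-fold or more, where all genes gave 1.93% and 4.43%. The 2 lower calls became 1 after centring and 0 after removal of a loess trend. Abca1 at -0.998 lay just inside 2-fold, at 10.33 and 9.33. The lists of 9 and 3 genes had medians of -0.09 and 0.31. The cell cycle genes had a median of -1.19, with 6 of 9 at least 2-fold lower, and their part was not tested.

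Between TT naive cells and the labelled-naive array the sterol median was 0.11 against -0.06 for all genes, and the fatty acid and efflux lists stood at -0.29 and -0.10. Sqle, higher in TT naive by 1.33 and just under the filter on the other array, was the only one of the 30 members above the filter at 2-fold, with 0 lower, where all genes gave 0.795% and 2.59%. Acss2 at 0.71 and Srebf2 at 0.56 were next among higher genes. Fads2 at -0.86 and Abca1 at -0.83 were the lowest above the filter. Cell cycle genes had a median of -0.95 in this comparison, with 3 of 9 at least 2-fold lower, and their part was not tested.

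Other genes of lipid metabolism were taken from a further list of 31, of which 26 were measured. In cTh1 5 of 26 exceeded the labelled-naive array by 2-fold or more and none was lower, and the median was 0.15. Over TT naive 6 were higher, none was lower and the median was 0.17. All genes gave 5.13% and 7.24% higher in these comparisons, and Me1, in both counts, passed the filter only through cTh1. The genes of this further list that serve the SREBP machine, Scap, Mbtps1, Mbtps2 and Insig2, did not reach 2-fold between cTh1 and either baseline. Scap, the escort of SREBP, was at 9.63, 9.56, 9.16 and 9.48 on the labelled-naive array, TT naive, cTh1 and nTh1, and the SREBP protease Mbtps1 was at 10.56, 10.71, 10.42 and 10.89. Insig2, the relative of Insig1, was at 8.27, 8.61, 8.81 and 7.81, and at -1.002 was at least 2-fold lower in nTh1 than in cTh1. Elovl5, the elongase of polyunsaturated chains that works beside Fads2, was at 11.10, 11.43, 12.26 and 11.40, higher in cTh1 by 1.16 and 0.83. Slc25a1, which exports citrate from mitochondria, was at 10.12, 9.71, 10.92 and 9.41, higher by 0.80 and 1.22. Me1, the malic enzyme that makes NADPH for lipid synthesis, was at 4.85, 5.11, 7.51 and 5.31.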

How the data were processed

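RNA of 4 cell populations was measured with 1 Affymetrix array each, from 300 ng of total RNA per the labels' protocols. The deposited log2 values were RMA summaries; the submitters' processing notes name Affymetrix Expression Console 1.3.1, with the summary level not given in the sources used here. The table held 41345 probe sets, 0 missing values and 0 unmatched columns. Of the probe sets 23521 had 1 symbol in the platform annotation, 1814 several and 16010 none. For each of 22180 genes the probe set with the highest mean was used. A gene entered the counts and the all-gene median of a comparison when either array reached 6.61, the median over the whole table; list medians cover all measured genes of a list. Differences subtract the latter array from the former on the log2 scale and were counted at 2-fold. The probe set SD pools, over genes that have at least 2 such probe sets, the variance of that difference. No test was made, since each group had 1 array, and the number of arrays limits the precision. All 31 measured members are named. The members and lists were chosen with earlier results of these data known. Promoter windows and names came from RefSeq tables of GRCm38.p6, used for sequence and names only, the build behind the probe sets being not given in the sources used here. Alternatives were no filter, a filter at the 75th percentile, the mean of all probe sets, centring, subtraction of a loess trend (span 0.3), a 3-fold threshold and, chosen after seeing the data, a filter on both arrays. The counting was tested on simulated data. Python 3.11.15, numpy 2.4.6, pandas 2.3.3, statsmodels 0.14.6 and matplotlib 3.10.9 were used.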

Additional observations from a re-analysis of the deposited data

How the results depend on the processing

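All 108 alternative values of the list medians stayed within the probe set SD of the reported median. The medians of sterol synthesis ran from 1.22 to 1.28 for cTh1 over the labelled-naive array, from 1.00 to 1.13 over TT naive, from -1.48 to -1.36 for nTh1 over cTh1 and from -0.49 to -0.39 for nTh1 over TT naive. The fatty acid median of nTh1 over the labelled-naive array, -0.09, ran from -0.19 to 0.01, and that of nTh1 over TT naive, 0.21, from -0.03 to 0.30, so neither has a settled sign. For cTh1 over TT naive the fatty acid median, 0.52, ran from 0.09 to 0.57. Of the 84 alternative counts 70 were within 1.5 times the reported count and 14 were not. With the filter on both arrays, chosen after seeing the data, nTh1 had 0 members higher than TT naive, because Fads2 left, and TT naive 0 higher than the labelled-naive array, because Sqle left. At 3-fold, cTh1 had 8 members higher than the labelled-naive array, and 7 higher and 0 lower than TT naive. nTh1 then had 0 higher and 9 lower than cTh1, and 1 higher and 0 lower than the labelled-naive array, and TT naive had 0 higher. The share of all genes at 3-fold was not counted, so the 3-fold counts cannot be set against it. Without a level filter, nTh1 had 2 members higher than TT naive, because Scd1 entered, where 213 of all 22180 genes were higher. The 2 members lower in nTh1 than on the labelled-naive array became 1 after centring and 0 after loess. With the filter at the 75th percentile Sqle left, so TT naive had 0 higher. Averaging probe sets changed no member, since each had 1. No paired analysis was possible because each group had 1 array. Values under the level filter, such as Scd1 outside cTh1, are limited by background.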

Other observations

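Genes that store or burn fatty acids were in the same further list and also differed between the arrays. Dgat1, which makes triglyceride, was at 9.47 on the labelled-naive array, 9.10 in TT naive, 11.60 in cTh1 and 9.19 in nTh1, so that cTh1 stood 2.12 and 2.49 above the 2 baselines. Acadl, a mitochondrial dehydrogenase of fatty acid oxidation, was at 8.85, 8.37, 10.37 and 7.09. It was higher in cTh1 by 1.52 and 2.01, and was the only gene of the list at least 2-fold lower in nTh1 than in TT naive, at -1.28. Acadm, the dehydrogenase for shorter chains, was at 10.13, 10.35, 10.16 and 9.92, and Cpt1a, which admits fatty acids to mitochondria, at 10.47, 10.45, 9.87 and 10.27. Neither shared the pattern of Acadl. Acsl4, which activates long polyunsaturated fatty acids, was higher in cTh1 by 1.24 over the labelled-naive array and 0.89 over TT naive, while Acsl5 was at -0.41 and -0.08. Apoe, an LXR target and a gene of macrophages, was at 8.16, 8.04, 7.43 and 8.55, at least 2-fold higher in nTh1 than in cTh1 by 1.12. These values were looked at after the results of the main list, and no test of them was possible with 1 array per population.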
